A study of Mus musculus with 4 samples.

Results

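*Rarres2*, the gene for the secreted protein chemerin, was followed across 4 spatial transcriptomics sections of mouse brain, with the question of where it was found besides the choroid plexus and why the section titled K75-2-FMFC held the least of it. It is 1 of the 32285 genes in the count tables (ENSMUSG00000009281, protein coding) and lies at chr6:48569696-48572845 in GRCm38 (mm10). The gene and the low section were chosen by their measured values, the UMIs and CPM of *Rarres2* per section and its share in spots with the markers, with earlier results of these data known. The levels of *Rarres2* in marker spots and in whole sections are therefore descriptions, with intervals for counting error only and with no test. The sections came from fresh-frozen brain of *Nf1*+/- mice, which carry 1 inactivated copy of the neurofibromatosis type 1 gene in every cell. All 4 sections share this genotype, no wild type section was used here, and the labels give neither age, sex, brain region nor whether the sections came from different mice. The study used them to compare the RNA of dense patches of oligodendrocyte precursor cells (OPCs) with that of areas lacking such patches, and *Rarres2* was among the 4 genes it named, with *Ttr*, *Enpp2* and *Ecrg4*. The outlines of those patches were not used here. Sections titled K73-6-FMFC, K73-8-FMFC, K75-1-FMFC and K75-2-FMFC are called sections 1, 2, 3 and 4.

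Chemerin leaves the cell as an inactive precursor, and proteases that trim its C-terminus make it a ligand for the receptors Cmklr1 and Gpr1, while a further receptor, Ccrl2, binds it without signalling. The gene's name, retinoic acid receptor responder, comes from its induction by a synthetic retinoid in skin. The cell types compared lie at the borders of the brain. Ependymal cells are ciliated and line the ventricles. Choroid plexus epithelium, which joins the ependyma at the root of the plexus, secretes the cerebrospinal fluid and makes transthyretin (*Ttr*) in bulk, and fibroblasts lie in the meninges and around large vessels.

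On a Visium slide each barcoded spot captures mRNA from the small patch of tissue above it, so a spot can hold cells of several types. Counts are of unique molecular identifiers (UMIs), and a level is given in CPM, the UMIs of the gene scaled to a total of 1000000 UMIs in the same spots. The 1537, 2358, 2294 and 1431 spots with at least 500 UMIs in sections 1 to 4 had a median of 14922, 15296.5, 8862.5 and 12232 UMIs, so section 3 was the shallowest. Pairs of sections shared 427 to 1989 spot barcodes, which on these slides name array positions and not cells.

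*Rarres2* was counted with 893, 954, 511 and 351 UMIs in sections 1 to 4. Its level was 38.0 CPM in section 1 (95% exact Poisson interval 35.6 to 40.6), 25.8 in section 2 (24.2 to 27.5), 23.2 in section 3 (21.2 to 25.3) and 18.2 in section 4 (16.4 to 20.2), a mean of 26.3 ± 8.43 (SD, n = 4 sections). At least 1 UMI was found in 29.1, 24.9, 14.8 and 17.3% of spots, and the richest single spots held 28, 34, 20 and 13 UMIs. Most spots with *Rarres2* thus held very little of it, and a few held much.

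With the 3 markers per class used here, *Rarres2* was more concentrated in spots with ependymal than with choroid plexus markers in sections 1 and 4, and less so in section 3, where 6 of the 9 choroid plexus-marker spots held ependymal markers too. A spot was put in a class when it held at least 2 of the 3 markers of that class, which were *Foxj1*, *Ccdc153* and *Tmem212* for ependyma (genes of motile cilia and their control), *Folr1*, *Kcnj13* and *Clic6* for choroid plexus (a folate receptor and ion channels of its epithelium) and *Col1a1*, *Dcn* and *Lum* for fibroblasts (a collagen and 2 proteoglycans of the matrix). A spot could be in several classes. Marker-free spots held none of the 9 markers.

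Ependymal-marker spots were few, 72, 48, 42 and 24 in sections 1 to 4, and they held 374, 246, 167 and 80 *Rarres2* UMIs. Their level was 311, 316, 511 and 499 CPM, against 18.6, 16.2, 14.1 and 11.3 CPM in the marker-free spots of the same sections. By single spot the groups overlapped, since 12, 10, 9 and 7 ependymal-marker spots of sections 1 to 4 held 0 *Rarres2* UMIs. The ratio of the levels was 16.7 (95% exact conditional interval 13.9 to 20.0), 19.5 (16.5 to 23.0), 36.4 (29.6 to 44.6) and 44.1 (33.2 to 58.3). The mean log2 ratio was 4.75 ± 0.68 (SD, n = 4 sections), a fold of 26.8. In sections 1 to 4 these spots made up 5.13, 2.11, 1.48 and 0.832% of all UMIs but 41.9, 25.8, 32.7 and 22.8% of the *Rarres2* UMIs, a mean share of 30.8% ± 8.48 (SD, n = 4 sections). In sums over spots, more cells of a type and more RNA per cell cannot be told apart.

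Detection per spot followed the same order. A *Rarres2* UMI was found in 83.3, 79.2, 78.6 and 70.8% of ependymal-marker spots (median depth 15494, 15743, 7886.5 and 5417 UMIs) and in 21.8, 19.9, 12.2 and 13.3% of marker-free spots (median depth 13691.5, 14668, 8681.5 and 12232 UMIs). With every spot of at least 5000 UMIs thinned to 5000, which left 71, 46, 31 and 15 ependymal-marker spots, the shares were 62.0, 54.3, 74.2 and 80.0% in ependymal-marker spots against 7.98, 7.70, 7.44 and 6.67% in marker-free spots. The difference was thus present at equal depth. Among the 10 spots richest in *Rarres2* in each section, 10, 10, 10 and 9 were ependymal-marker spots, all held at least 1 ependymal marker, and together they carried 20.0, 16.9, 19.4 and 19.9% of the section's *Rarres2* UMIs.

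Choroid plexus-marker spots were spread unevenly, with 144, 2, 9 and 60 spots in sections 1 to 4. They held 383, 0, 54 and 59 *Rarres2* UMIs, which is a level of 151 CPM in section 1, 675 in section 3 and 119 in section 4. The 0 UMIs of section 2 came from 2 spots, and 0 counts allow a level of up to 58.5 CPM (3 counts), so a level like that of its ependymal-marker spots lies above the limit while one like that of its marker-free spots does not. These spots carried 42.9, 0, 10.6 and 16.8% of *Rarres2* (mean 17.6% ± 18.3, SD, n = 4 sections) and 10.8, 0.139, 0.364 and 2.57% of all UMIs. The spread between sections was as large as the mean.

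The order of these classes depended on the markers. With at least 2 of the further markers of each cell type, 8 for ependyma and 7 for choroid plexus, 256, 255, 136 and 132 ependymal-marker spots and 220, 7, 7 and 90 choroid plexus-marker spots were found in sections 1 to 4. The log2 ratio of *Rarres2* over marker-free spots was then 2.5, 2.20, 3.20 and 2.52 for ependyma and 2.64, 1.84, 4.0 and 3.24 for choroid plexus. With those broader sets, choroid plexus-marker spots were thus the higher of the pair in sections 1, 3 and 4, in section 3 from 7 spots. Spots in both broader classes were counted in each. Marker-free spots were defined as before, so they could hold further markers, and in section 2 they held 709 UMIs of the 8 ependymal ones. Which class was higher with shared spots set apart was not tested for the broader sets.

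**Figure D1:**
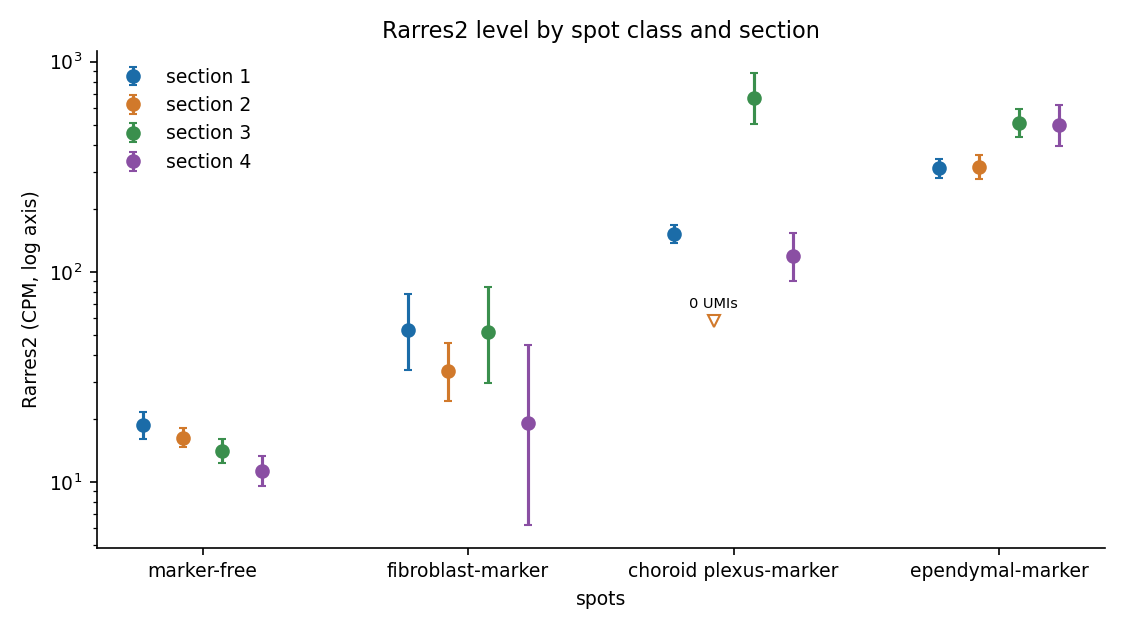
Level of Rarres2 (CPM, log axis) in marker-free, fibroblast-marker, choroid plexus-marker and ependymal-marker spots of each section, with 95% exact Poisson intervals as bars; spots in several classes are counted in each, and the open triangle is the limit of 58.5 CPM that 0 UMIs (3 counts) allow for the 2 choroid plexus-marker spots of section 2. Ependymal-marker spots sit between 311 and 511 CPM in all 4 sections and marker-free spots between 11.3 and 18.6 CPM.

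Many choroid plexus-marker spots were ependymal-marker spots too, 49 of 144 in section 1 (34.0%), 6 of 9 in section 3 (66.7%) and 13 of 60 in section 4 (21.7%). Taken in the other direction, these were 68.1, 14.3 and 54.2% of the ependymal-marker spots of those sections. Spots were then put into groups that do not overlap, and those in a single class are called choroid plexus-only, ependymal-only or fibroblast-only. Such spots could still hold 1 marker of another class, and levels without any ependymal marker are given further below. Choroid plexus-only spots stood at 47.7 CPM in section 1 (37.8 to 59.4, 92 spots) and 44.5 CPM in section 4 (25.9 to 71.3, 45 spots). In section 3 there were 3 such spots with 4 UMIs (164 CPM, 44.6 to 419). Ependymal-only spots stood at 179, 316, 431 and 578 CPM in sections 1 to 4. Spots of more than 1 class stood at 356, 899 and 371 CPM in sections 1, 3 and 4, and section 2 had none. The order in sections 1 and 4 was thus the same. Choroid plexus-only spots, some with 1 ependymal marker, were far below ependymal-only spots and spots of more than 1 class, and above marker-free spots.

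The level climbed with the number of ependymal markers found in a spot. For 0, 1, 2 and 3 of the 3 markers it was 20.6, 36.2, 107 and 607 CPM in section 1. In section 2 it was 17.4, 35.6, 86.8 and 628 CPM, in section 3 14.6, 30.3, 307 and 730 CPM, and in section 4 12.7, 34.7, 166 and 870 CPM. Each step was upward in every section, and the 32, 22, 19 and 11 spots with all 3 markers alone held 298, 207, 115 and 66 of the *Rarres2* UMIs. The spots with all 3 ependymal markers and no choroid plexus marker (4, 14, 8 and 1 spots) stood at 741, 499, 853 and 1031 CPM. Spots with 2 ependymal markers and no choroid plexus marker (8, 24, 13 and 4 spots) were much lower, at 31.1, 78.7, 188 and 59.3 CPM, and the first and last of these rest on 4 and 2 UMIs. Without choroid plexus markers, the high level was thus found with all 3 ependymal markers. With 2, the level was raised in section 2 (53.9 to 111 CPM) and section 3 (109 to 301 CPM), against 17.4 and 14.1 CPM with neither kind of marker. In sections 1 and 4 it was in doubt.

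Among spots without any ependymal marker, the level differed less with the number of choroid plexus markers. For 0, 1, 2 and 3 choroid plexus markers the level was 19.3, 21.4, 26.8 and 47.2 CPM in section 1 and 11.5, 17.5, 21.2 and 47.0 CPM in section 4. The values at 3 markers rest on 4 UMIs in 5 spots (12.9 to 121 CPM) and on 3 UMIs in 10 spots (9.70 to 137 CPM), so at this depth they cannot be set apart from those with fewer markers. For 0 and 1 markers it was 17.4 and 17.6 CPM in section 2 and 14.1 and 19.3 CPM in section 3, where 274 and 170 spots held 1 marker, so section 2 showed no difference at this step. Those sections had 2 spots each with 2 choroid plexus markers, holding 0 and 1 *Rarres2* UMIs, and none with 3.

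**Figure D2:**
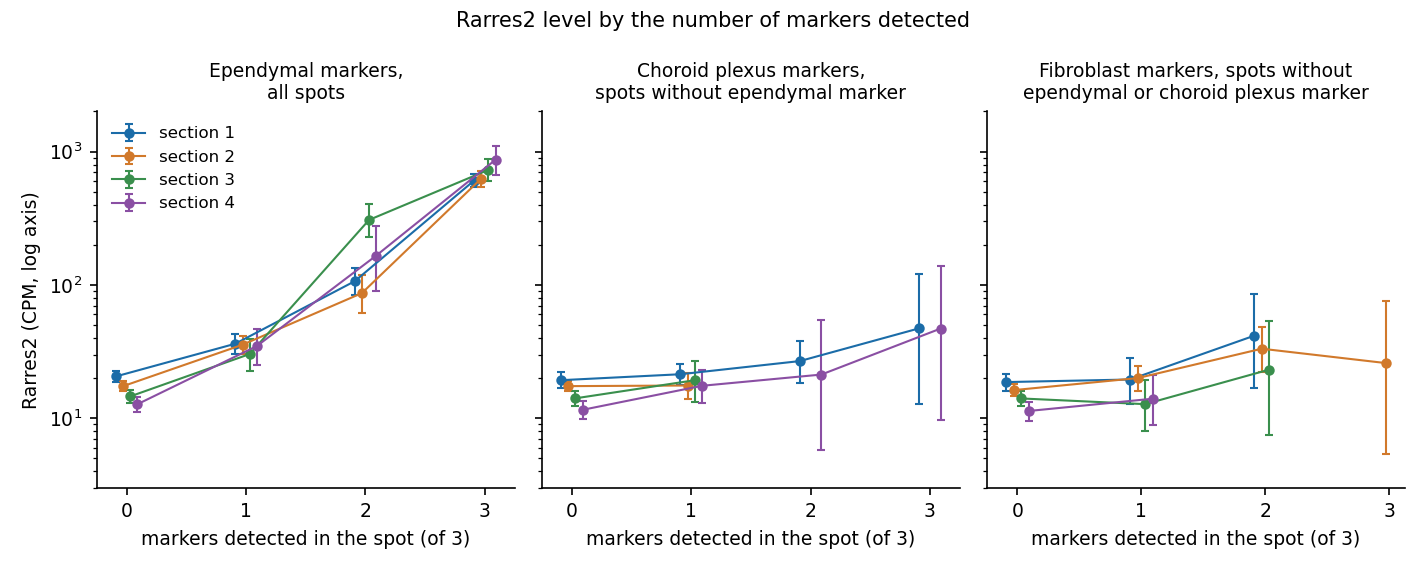
Level of Rarres2 (CPM, log axis) against the number of markers of 3 detected in a spot, for ependymal markers in all spots, choroid plexus markers in spots without an ependymal marker, and fibroblast markers in spots without either; bars are 95% exact Poisson intervals and points with under 3 Rarres2 UMIs are not drawn. The lines for ependymal markers climb from between 12.7 and 20.6 CPM to between 607 and 870 CPM in every section, and those of the other panels stay below 50 CPM where they are drawn.

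The ratio of *Rarres2* to *Ttr*, the most abundant transcript of choroid plexus epithelium, differed between the groups. In section 1 there were 1.53 *Rarres2* UMIs per 1000 *Ttr* UMIs in choroid plexus-only spots, 17.1 in ependymal-only spots and 4.49 in marker-free spots. In section 4 the ratios were 0.669, 27.4 and 11.3. In these sections *Rarres2* was lowest relative to *Ttr* in choroid plexus-only spots, although its level there was above that of marker-free spots. Spots of more than 1 class came next, with ratios of 2.20 and 2.07 in sections 1 and 4 at levels of 356 and 371 CPM. A low ratio to *Ttr* thus did not mean a low level of *Rarres2*. In section 3, where *Ttr* was scarce, the ratios were 364 (4 *Rarres2* and 11 *Ttr* UMIs), 280 and 482, so the order was another, and in section 2 choroid plexus-only spots held 0 *Rarres2* UMIs. *Ttr* itself was at 12231, 7.0, 72.9 and 3737 CPM in sections 1 to 4, *Enpp2* (autotaxin, an enzyme that makes lysophosphatidic acid) at 641, 122, 140 and 401 CPM and *Ecrg4* (a secreted peptide precursor of choroid plexus) at 90.3, 4.30, 4.04 and 34.5 CPM. These 3 genes were highest in section 1 and next in section 4, an order *Rarres2* did not share.

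With the 3 markers used here, fibroblast-marker spots held little of the *Rarres2* in any section. There were 29, 83, 32 and 17 of them with 25, 40, 16 and 5 *Rarres2* UMIs, and the level was 52.9, 33.8, 51.8 and 19.1 CPM. The ratio over marker-free spots was 2.84 (95% exact conditional interval 1.79 to 4.33), 2.08 (1.46 to 2.89), 3.69 (2.07 to 6.12) and 1.69 (0.541 to 4.04), so in section 4 the interval held 1. These spots carried 2.80, 4.19, 3.13 and 1.42% of *Rarres2* (mean 2.89% ± 1.14, SD, n = 4 sections) and 2.01, 3.20, 1.40 and 1.36% of all UMIs. In fibroblast-only spots, which could still hold 1 marker of another class, the level was 30.3, 33.8, 23.2 and 12.6 CPM. They held 11 of the 25 UMIs of section 1 and 7 of the 16 of section 3, with the rest in spots that also had another class. Spots with 2 fibroblast markers and no ependymal or choroid plexus marker stood at 41.6, 33.2, 23.1 and 5.72 CPM, from 7, 28, 5 and 1 UMIs. With at least 2 of 10 further fibroblast markers, spots held 62.6, 36.1, 15.3 and 34.5% of *Rarres2* in sections 1 to 4. Those spots held 30.8, 29.8, 13.5 and 21.4% of all UMIs. The 10 further markers were not particular to fibroblast-marker spots. In section 1 they stood at 1031 CPM in spots of more than 1 class and 762 CPM in fibroblast-only spots. In section 4 they were at 806 CPM in choroid plexus-only, 1856 CPM in more-than-1-class and 431 CPM in fibroblast-only spots. In sections 2 and 3 fibroblast-only spots were the highest. These shares are therefore not those of fibroblasts alone.

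The largest part of *Rarres2* in sections 2, 3 and 4 came from spots with none of the 9 markers. Marker-free spots carried 19.6, 37.2, 44.6 and 41.6% of the *Rarres2* UMIs (175, 355, 228 and 146 UMIs) and 40.0, 59.1, 73.7 and 67.0% of all UMIs in sections 1 to 4. Of the marker-free spots with *Rarres2*, 121 of 145, 241 of 292, 194 of 211 and 112 of 128 held a single UMI. This is a low level over many spots.

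The genes of ependymal cilia that were not used to sort the spots gave a measure of how much of an ependymal transcript is found in marker-free spots. Of 8 such genes (*Dynlrb2*, *Rsph1*, *Tekt1*, *Pifo*, *Fam183b*, *Enkur*, *Meig1* and *Cfap126*), the summed level in marker-free spots was 4.74, 5.48, 2.38 and 2.17% of that in ependymal-marker spots of the same section. For *Rarres2* the figure was 6.01% (95% exact conditional interval 4.99 to 7.21), 5.14% (4.36 to 6.07), 2.75% (2.24 to 3.38) and 2.27% (1.71 to 3.02). The intervals of *Rarres2* held the summed value of the cilia genes in sections 2, 3 and 4, and lay just above it in section 1, where the interval of the summed genes was 4.15 to 5.41%. Single cilia genes ranged from 2.93 to 9.75% in section 1, from 3.09 to 23.7% in section 2, from 1.04 to 4.38% in section 3 and from 0.588 to 7.30% in section 4. *Meig1* was above *Rarres2* in every section, and *Dynlrb2*, *Rsph1* and *Cfap126* were below it in every section. The other cilia genes lay above it in some sections and below it in others. How close *Rarres2* came to the sum thus depends on which genes are summed. Whether RNA that moved sideways from the ventricle wall, or markers missed at this depth, took part in the marker-free level was not tested.

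Over whole sections *Rarres2* followed those cilia genes more closely than the other marker sets. There were 46.8, 54.2, 43.4 and 41.4 *Rarres2* UMIs per 100 UMIs of the 8 cilia genes in sections 1 to 4, a range of 1.31-fold. Per 100 UMIs of 10 further fibroblast markers there were 27.6, 24.4, 30.5 and 17.9, a range of 1.71-fold. In sections 1 and 4 those markers were not particular to fibroblast-marker spots, as given above. Per 100 UMIs of 7 further choroid plexus markers the figures were 42.7, 533, 334 and 37.7, a range of 14.1-fold, and per 100 *Ttr* UMIs the range was 1184-fold. Against the 3 markers that sorted the spots, the ranges were 1.48-fold for ependyma, 1.91-fold for fibroblasts and 4.28-fold for choroid plexus. The order of the ranges was the same with either set, the contrast was much smaller, and with 4 sections these are descriptions.

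**Figure D3:**
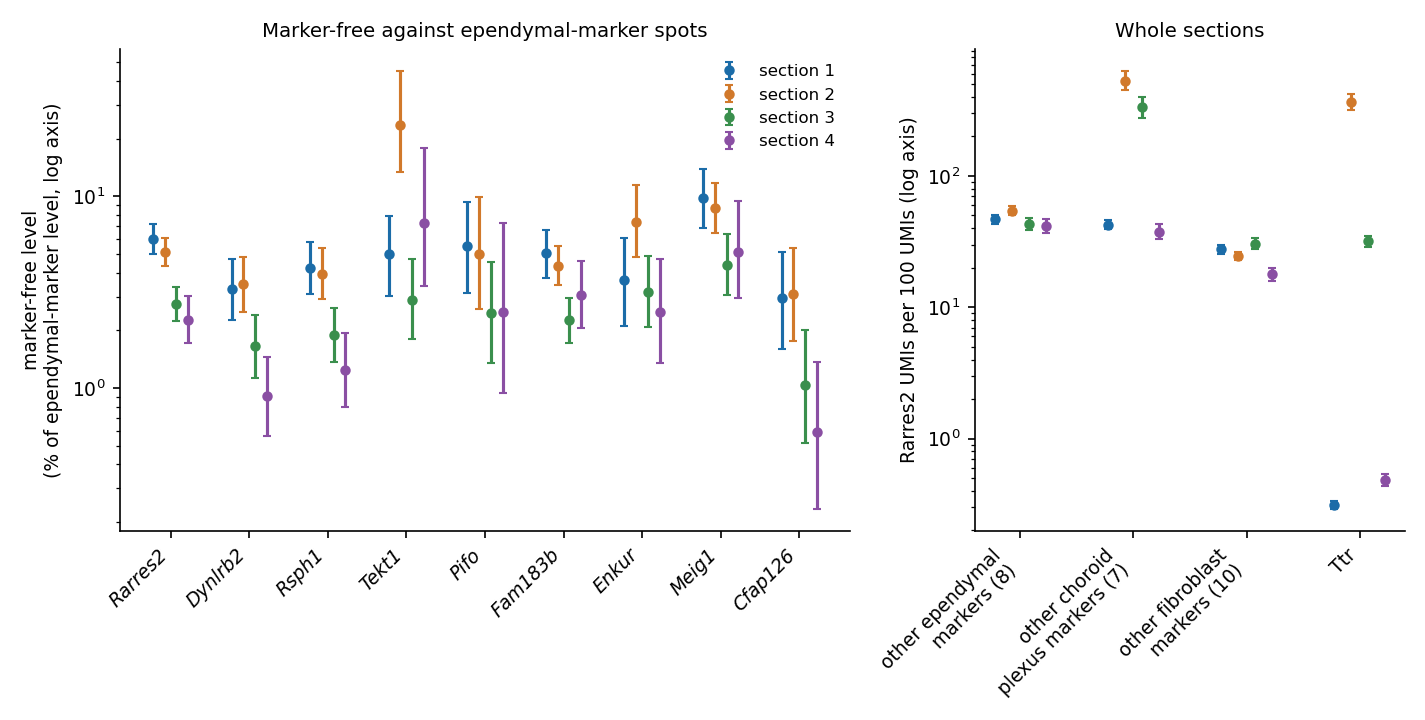
Left, level in marker-free spots as a percentage of the level in ependymal-marker spots (log axis) for Rarres2 and 8 genes of ependymal cilia that were not used to sort spots; right, Rarres2 UMIs per 100 UMIs of 3 marker sets and of Ttr in whole sections (log axis); bars are 95% exact conditional intervals. Rarres2 lies between 2.27 and 6.01% on the left, within the range of the cilia genes, and on the right it spans 1.31-fold against the cilia genes and 1184-fold against Ttr.

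Section 4 held the least *Rarres2* per UMI, and its ependymal-marker spots were not low. The level in those spots was 499 CPM, close to the 511 CPM of section 3 (ratio of section 3 to section 4 1.02, 95% exact conditional interval 0.780 to 1.35) and above sections 1 and 2 (ratio 0.622, 0.487 to 0.802, for section 1, and 0.632, 0.490 to 0.824, for section 2). What was low in section 4 was the part of its UMIs that came from such spots, 0.832% against 1.48 to 5.13% in the others, and the level in marker-free spots, 11.3 CPM against 14.1 to 18.6. Section 1 stood 2.09-fold above section 4 over all spots (1.84 to 2.37) and 1.65-fold above it in marker-free spots (1.32 to 2.07). For section 2 the ratios were 1.41 (1.25 to 1.60) and 1.43 (1.18 to 1.75), and for section 3 1.27 (1.11 to 1.46) and 1.24 (1.005 to 1.54). With ependymal-marker spots left out, the ratio of section 3 to section 4 was 1.12 (0.951 to 1.32).

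Each section's level is the sum over 6 spot groups of the group's part of all UMIs times its *Rarres2* level. Ependymal-only spots and spots of more than 1 class added 3.02 and 12.9 CPM in section 1, 6.65 CPM and none in section 2, 5.32 and 2.27 CPM in section 3, and 2.08 and 2.18 CPM in section 4. Marker-free spots added 7.46, 9.59, 10.4 and 7.58 CPM, so sections 1 and 4 were close there. Spots with a marker but in no class added 10.8, 8.46, 4.77 and 5.35 CPM.

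The levels of section 4 were then combined with the spot group shares of each other section. This gave 39.7, 25.9 and 20.9 CPM for the shares of sections 1, 2 and 3, against the measured 38.0, 25.8 and 23.2 CPM. In the reverse direction, the shares of section 4 with the levels of sections 1 and 3 gave 23.3 and 25.7 CPM, against 18.2 measured in section 4, and section 2 gave no value because it had no spots of more than 1 class. With the levels of section 4 kept, the shares of sections 1 and 2 thus gave values near those measured there. The levels themselves were not alike. In ependymal-only spots section 4 was higher, at 578 against 179 and 316 CPM in sections 1 and 2. In marker-free spots it was lower, at 11.3 against 18.6 and 16.2 CPM, so the differences offset each other in the sum. With the shares of section 4 kept, the levels of section 3 gave a value above the one measured in section 3. That value used the 164 CPM of choroid plexus-only spots in section 3, from 4 UMIs in 3 spots. With 5 spot groups it was 23.3 CPM, close to the 23.2 measured. The shares of section 1 with the levels of section 4 gave more than was measured in either section, also with 5 groups (42.3 CPM). The exchanges therefore do not add up to separate parts of the difference.

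The rank of section 4 also depended on how spots were weighted and which were kept. Its ependymal-marker spots were shallow, with a median of 5417 UMIs against 12232 in its marker-free spots, while the medians of the pair were 15494 and 13691.5 in section 1, 15743 and 14668 in section 2 and 7886.5 and 8681.5 in section 3. They made up 1.68% of the spots of section 4, against 4.68, 2.04 and 1.83% in sections 1 to 3. Of all UMIs they made up 0.832% in section 4, against 5.13, 2.11 and 1.48% in those sections. By share of spots section 4 was thus close to section 3, while by share of UMIs it was lower. When each spot counted equally, the mean *Rarres2* level per spot was 41.1, 27.9, 27.9 and 29.7 CPM in sections 1 to 4, and section 4 was not the lowest. The standard errors over spots were 1.89, 2.33 and 3.57 CPM in sections 2, 3 and 4, larger than the gap between these sections, and spots are not replicates. Over the spots with at least 5000 UMIs the equal-weight means were 42.4, 26.9, 26.0 and 23.5 CPM, with section 4 the lowest again. With those spots thinned to 5000 UMIs, the levels were 41.8 (37.2 to 46.7), 26.8 (23.9 to 30.0), 25.3 (22.2 to 28.7) and 24.3 CPM (20.6 to 28.6), and the intervals of sections 2, 3 and 4 overlapped. Why ependymal-marker spots were shallower in section 4, and their share of spots the lowest by a small margin, was not tested.

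**Figure D4:**
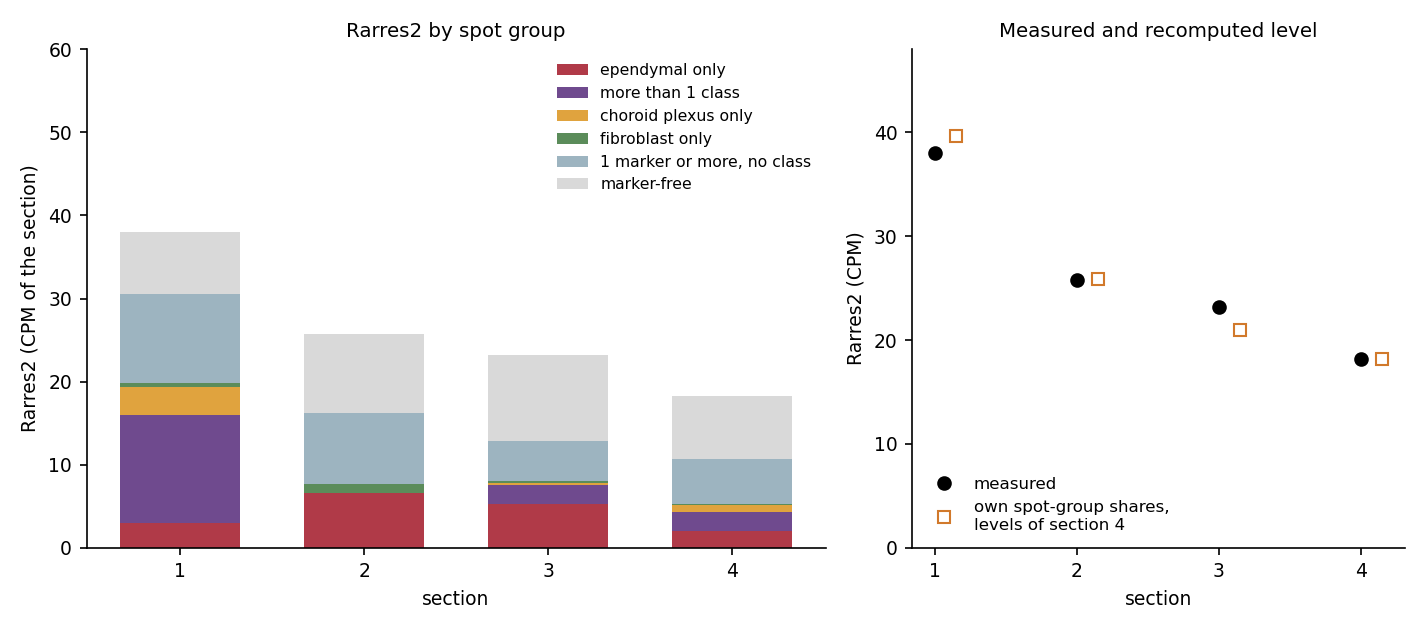
Left, Rarres2 CPM of each section, stacked by the 6 spot groups; right, the measured level (filled circles) beside the level recomputed with each section's own spot group shares and the Rarres2 levels of section 4 (open squares). Recomputed values of 39.7 and 25.9 CPM for sections 1 and 2 lie near the measured 38.0 and 25.8 CPM, although the levels of single groups differed in both directions. The 20.9 CPM recomputed for section 3 lies below the measured 23.2 CPM and its interval of 21.2 to 25.3.

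The genes whose level was most like that of *Rarres2* were sought over 22 points, the 6 spot groups in 4 sections less those with fewer than 3 spots, among 11168 genes. The points of 1 section share a library, and spot groups were formed with ependymal markers, so the correlations are descriptions. The 10 highest Pearson correlations of log2(CPM + 1) were those of *Dbi* (0.98), a binding protein of acyl-CoA found in glia, *1110017D15Rik* (0.98), *Meig1* (0.96), *Riiad1* (0.96), *Rsph1* (0.96), a protein of the radial spokes of cilia, *Gm19935* (0.95), *Lrrc51* (0.94), *Tmem47* (0.94), *Mia* (0.93) and *Mt1* (0.92), a metallothionein that binds zinc. Of the other genes the study named, *Ecrg4* stood at 0.64 (rank 344), *Ttr* at 0.47 (rank 731) and *Enpp2* at 0.38 (rank 1020).

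The receptors of chemerin were barely counted, and the proteases that trim it ranged from absent to well counted. The receptor *Cmklr1* was at 0.98, 0.86, 0.95 and 0.52 CPM in sections 1 to 4, *Gpr1* at 0.55, 0.57, 1.45 and 0.83 CPM, and *Ccrl2* at 0.81, 0.81, 0.91 and 0.67 CPM, from 10 to 32 UMIs each. In ependymal-only spots the 3 receptors together had 2 UMIs over all sections, which at this depth does not show that they are absent. Of the proteases known to trim chemerin, the lysosomal cathepsins *Ctsl* (132 to 155 CPM) and *Ctss* (79.8 to 87.0 CPM) were found throughout and *Ctsk* was at 2.78 to 4.36 CPM. *Cpn1*, a carboxypeptidase subunit, was at 0.59 to 1.28 CPM, *Elane*, *Plg* and *Klk7* had at most 2 UMIs in a section, and *Ctsg*, *Tpsb2* and *Cpb2* had 0 UMIs in every section.

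A test that did not use the marker classes asked what else was found in marker-free spots with *Rarres2*. UMIs were summed per section over the 145, 292, 211 and 128 marker-free spots with at least 1 *Rarres2* UMI and over as many marker-free spots without one, matched on total UMIs, with *Rarres2* left out. Of 11858 genes tested by edgeR's quasi-likelihood test with the section as a block, 30 (0.253%) were higher and 38 (0.32%) were lower in the *Rarres2*-positive spots at a Benjamini-Hochberg adjusted p under 0.05, and 1003 passed at an unadjusted p under 0.05. Of the lists, those of inhibitory neurons (3 genes), astrocytes (1) and mural cells (1) held genes that rose, that of excitatory neurons held 1 that fell, and no cilia gene of the lists passed.

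The 10 largest rises with the same direction in all 4 sections began with *Six3os1*, a long noncoding RNA beside *Six3*, with 80 UMIs in positive and 32 in matched negative spots (log2 fold change 1.31 ± 0.30 SE, adjusted p = 0.0203 by edgeR). *Prkcd*, a protein kinase abundant in thalamus, had 332 against 143 UMIs, and its log2 ratio was 0.60, 0.83, 2.60 and 0.62 in sections 1 to 4 (fitted 1.21 ± 0.18, adjusted p = 4.34e-05). *Zic1*, a transcription factor of septum, thalamus and cerebellum, had log2 ratios of 0.24, 0.75, 1.95 and 1.05 (fitted 0.95 ± 0.14, adjusted p = 5.91e-05). Section 3 was the highest for both, and all 4 sections were above 0. The other 7 were *Ngb* (neuroglobin, 0.91), *Nts* (neurotensin, 0.69), *Pld5* (0.65), *Gabrg1* (a GABA receptor subunit, 0.63), *Nnat* (neuronatin, 0.48), *Rgs5* (a regulator of G protein signalling in pericytes, 0.41), and *Ctxn2* (0.35), with adjusted p from 3.65e-05 for *Nnat* to 0.0487 for *Ctxn2*. The 5 largest falls were *Bicra* (−1.33), *Ccdc3* (−0.94), *Sarm1* (an enzyme that breaks down NAD in axons, −0.87), *Lmtk2* (−0.40) and *Rprm* (−0.40, a marker of deep cortical layers). The fall of *Rprm* rested on section 1, with log2 ratios of −0.88, −0.088, −0.21 and −0.37, and was −0.19 (adjusted p = 0.625 by edgeR) without that section. The rise of *Prkcd* was 0.75 without section 3.

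Of 6 inhibitory neuron genes, 3 rose (list median 0.090, against −0.00046 over all genes tested), the GABA transporter *Slc32a1* (0.24 ± 0.054, adjusted p = 0.0203 by edgeR) and the GABA-making enzymes *Gad2* (0.22) and *Gad1* (0.17), and each was higher in 4 of 4 sections. The interneuron genes *Sst*, *Vip* and *Pvalb* stood at 0.0091, 0.0049 and −0.0095. Of 5 excitatory neuron genes, 1 fell, the glutamate transporter *Slc17a7* (−0.30 ± 0.043, adjusted p = 3.65e-05, lower in 4 of 4 sections), and all 5 were below 0 (median −0.24).

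Of 8 mural cell genes tested, 1 rose (*Rgs5*, 0.41 ± 0.088, adjusted p = 0.0110 by edgeR) and all 8 were above 0, with a median of 0.39, among them *Vtn* at 0.33 (adjusted p = 0.0843). Of 8 astrocyte genes 1 rose (the glutamate transporter *Slc1a3*, 0.21, adjusted p = 0.0302) and 7 were above 0 (median 0.17). Of the 10 genes most like *Rarres2* across spot groups, *Mt1* (0.22, adjusted p = 3.65e-05) and *Dbi* (0.16, adjusted p = 0.0302) also rose here, each in 4 of 4 sections.

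Markers of the border cell types did not pass in this comparison. Spots with any of the 9 border cell markers had been left out of it in advance, and few further markers could be tested. The missing calls therefore cannot decide whether border cells held the *Rarres2* of these spots. None of 5 further ependymal markers tested was called (median 0.039), though *Fam183b* had 109 against 65 UMIs (0.74 ± 0.23, unadjusted p = 0.00203, adjusted p = 0.166 by edgeR) and *Dynlrb2* 52 against 31 UMIs (0.74 ± 0.36, adjusted p = 0.569). None of 5 further fibroblast markers (median −0.052), 2 choroid plexus markers (median 0.55, with 40 to 48 UMIs in positive spots), 8 endothelial genes (0.083), 7 microglial genes (0.018), 7 genes of mature oligodendrocytes (0.053), 8 OPC genes (0.10, *Pdgfra* 0.22 with adjusted p = 0.693) or the single tanycyte (−0.061) and blood genes (0.74) tested was called. The 3 other genes the study named were not called either (*Ttr* 0.030, *Enpp2* 0.014 and *Ecrg4* 0.15). None of the 3 proteases tested (median −0.075) and none of the 9 genes of retinoid handling was called, the latter including *Crabp1*, a carrier of retinoic acid (0.48 ± 0.16, adjusted p = 0.240). The chemerin receptors and border macrophage genes were too low to be tested.

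These calls were not stable. Of the 68 genes called, 37, 45, 21 and 23 were called again without sections 1, 2, 3 and 4 in turn. Without section 3 there were 9 higher and 14 lower genes, without section 4 there were 13 and 12, and DESeq2 without its filter called 1 gene in each direction. When spots with any of 25 further border cell markers were left out too, which left 30, 83, 77 and 39 positive spots, edgeR called 0 genes of 8153 (409 at an unadjusted p under 0.05), and *Zic1* turned to −0.34.

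**Figure D5:**
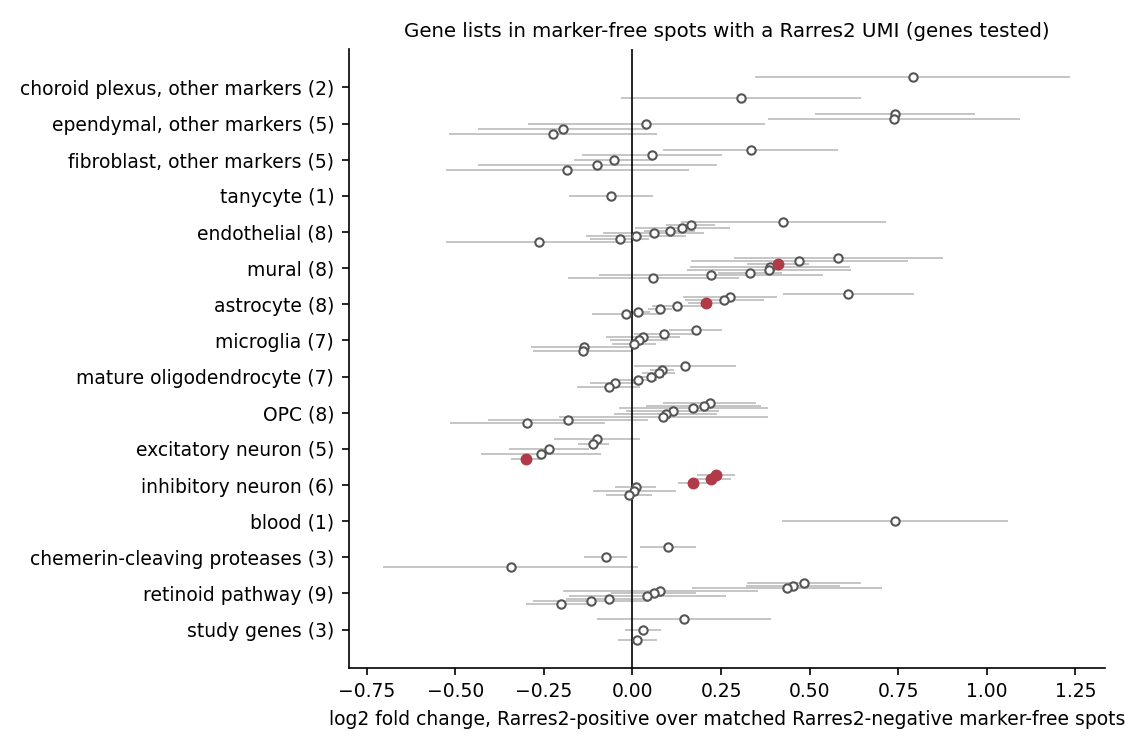
Log2 fold change of each tested gene, by list, between Rarres2-positive and matched Rarres2-negative marker-free spots; points are edgeR estimates from sums over 4 sections, bars are standard errors, filled points have an adjusted p under 0.05, and the number of genes tested is in parentheses. The filled points are Rgs5, Slc1a3, Slc32a1, Gad2 and Gad1 above 0 and Slc17a7 below it.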

How the data were processed

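Fresh-frozen brain of *Nf1*+/- mice was cut at 10 µm and 4 sections were profiled on Visium slides. Per the file headers the authors ran Space Ranger 1.3.1, and they deposited raw UMI counts for 32285 genes per spot, with no normalization. The submitters' processing notes name mm10. The labels do not say whether sections are separate mice, so n counts sections. The p-values and SE of edgeR rest on a spread that is shared over genes, so they can understate how much 1 gene differs between sections. *Gnrh1*, for example, had an SE of 0.24 with section log2 ratios from −4.08 to 0.36.

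Spots with at least 500 UMIs were used (17, 1, 26 and 4 left out; 7620 used, with 19261103 to 37001945 UMIs per section). *Rarres2* coordinates are from RefSeq's GRCm38 table. Intervals are 95% exact Poisson, Clopper-Pearson or conditional binomial and cover counting error only; 0 counts were bounded at 3. The members, markers, lists and tests were chosen with earlier results of these data known.

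For the comparison in marker-free spots, each *Rarres2*-positive spot was paired with the unused negative spot of its section nearest in total UMIs. Sums were tested with edgeR 4.0.16 in R 4.3.3 (TMM factors, genes kept by filterByExpr, quasi-likelihood F test, a block term for section, p-values adjusted by Benjamini-Hochberg). Both sums of a pair come from the same section, and after removal of group means the 2 sums of a section had a correlation of 0.27 to 0.53 over all genes tested. SE is the fitted log2 change divided by the root of F. On simulated counts for this comparison, 190 of 200 genes changed by a log2 fold change of 1 were called, along with 9 unchanged genes of 11858. The simulated counts had the same dispersion for every gene (9.59e-04) and the same change in every section. They therefore do not show how the test behaves for smaller changes or for genes that differ between sections. Genes named are *Rarres2*, the marker and pathway lists, the 10 largest rises and 5 largest falls at an adjusted p under 0.05 with 1 direction in 4 sections, and the 10 most similar profiles (genes with at least 500 UMIs, the 9 markers left out); other names were chosen after their values were seen. Alternatives were other class thresholds and markers, a minimum of 2000 UMIs, thinning to 5000 UMIs, unmatched spots, all spots, scaling to total UMIs, no filter on low counts, DESeq2 1.42.0, a fit without the block and each section left out. Equal spot weights, DESeq2 without independent filtering and an exchange over 5 groups were added after the data were seen. Spots are not cells, so no doublets were called. Figures were drawn with matplotlib 3.10.9. A result for 1 gene of the retinoid list is not reported here.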

Additional observations from a re-analysis of the deposited data

Results flagged for a closer look

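Of 48 values measured in each of the 4 sections, 5 had 1 section far from the other 3 by the critical value of Dixon's test. About 2.4 would be flagged by chance if the values were independent, but many are linked. The *Rarres2* levels and shares among them had been used to choose the gene and the section, so the flags are descriptions. *Rarres2* in spots of any of the 3 marker classes stood at 273 CPM in section 3 and at 127 to 142 CPM in the others. Between *Rarres2*-positive and matched negative marker-free spots, the log2 ratio of *Prkcd* was 2.60 in section 3 and 0.60 to 0.83 elsewhere, and that of *Nts* was 1.82 in section 4 and 0.47 to 0.66 elsewhere. That of *Fam183b*, which the test did not call, was 0.60 in section 3 and 0.75 to 0.78 elsewhere. That of *Crabp1*, also not called, was 1.91 in section 4 and 0.28 to 0.46 elsewhere.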

How the results depend on the processing

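Depth limits the rarer groups most, since the class spots of section 4 held 5 to 80 *Rarres2* UMIs and most positive marker-free spots held 1. Of the main values under all alternatives, 64 stayed within the spread between sections or within 1.5 times the count, and 30 moved. A mean over sections cannot move by as much as that spread when 1 section is left out. Those means stayed by construction, so the 64 overstate how stable the values were. With 1 marker or more defining a class, the mean share of *Rarres2* was 40.9% in choroid plexus-marker, 44.5% in ependymal-marker and 16.8% in fibroblast-marker spots, and the mean log2 ratio over marker-free spots was 1.78 for choroid plexus and 2.64 for ependyma. By section, those spots held 9.94 to 44.0% (choroid plexus), 7.41 to 21.7% (ependyma) and 10.2 to 19.3% (fibroblast) of all UMIs. The fibroblast share was thus near the part of all UMIs in such spots. With all 3 markers required, the log2 ratio was 5.57 for ependyma and 2.03 for fibroblasts (2 sections), and the fibroblast share was 0.451%, beside 0 to 0.488% of all UMIs by section. With the further markers of each cell type, the ependymal share was 42.3% (log2 ratio 2.61) and the fibroblast share 37.1%. Choroid plexus-marker spots then stood above ependymal-marker spots in sections 1, 3 and 4, with spots in both classes counted in each. Spots without those markers held 11.0% of *Rarres2*. By section, those ependymal-marker spots held 7.34 to 19.7% and those fibroblast-marker spots 13.5 to 30.8% of all UMIs. The further fibroblast markers were also high in choroid plexus-only spots of section 4. After thinning, the fibroblast share was 0.984%, beside 0.408 to 1.53% of all UMIs by section, and the marker-free share was 49.8%.

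Leaving out each section in turn gave a mean level of 22.4 to 29.0 CPM, shares of 9.13 to 23.4% (choroid plexus), 27.1 to 33.4% (ependyma), 2.45 to 3.37% (fibroblast) and 32.8 to 41.1% (marker-free), and log2 ratios of 3.21 to 4.49, 4.51 to 4.98 and 1.11 to 1.48 for the 3 classes. It gave 9 to 31 higher and 12 to 38 lower genes (20 and 20 without section 1, 9 and 14 without section 3, 13 and 12 without section 4).

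Higher and lower genes numbered 713 and 618 with marker spots included, 0 and 0 without spots holding the further markers, 3 and 8 with DESeq2 (adjusted p missing for 11035 genes), 1 and 1 with DESeq2 without independent filtering (173 at an unadjusted p under 0.05), and 53 and 50 with no filter. Without the section as a block, which pairs the sums, there were 0 and 0 (247 at an unadjusted p under 0.05). For single genes named, 189 values kept their direction and side of the threshold, 6 passed it, 120 lost the call and 13 changed sign. Without spots holding the further markers, *Zic1* was at −0.34, *Lmtk2* at 0.12 and *Pdgfra* at −0.070. Against all negative spots, *Ttr* was at −0.019, *Enpp2* at −0.049, *Ecrg4* at −0.13 and *Pdgfra* at −0.076. With DESeq2 *Ttr* was at −0.13 under both settings. Leaving out each section gave −0.18 to 0.16 for *Ttr*, −0.042 to 0.060 for *Enpp2* (−0.0091 without section 3) and −0.33 to 0.39 for *Ecrg4*, the lowest without section 1. The causes of these changes were not tested. With 5 spot groups in place of 6, the levels of section 4 gave 42.3, 24.2 and 20.3 CPM for the shares of sections 1, 2 and 3, and the shares of section 4 gave 23.2, 20.8 and 23.3 CPM with their levels.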

Other observations

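The following genes called in *Rarres2*-positive marker-free spots were in no list and were picked after their values were seen, so they stand for no group. *Apoe*, the main lipid carrier of the brain, was at a log2 fold change of 0.17 (adjusted p = 9.96e-04 by edgeR), *Cst3* (cystatin C) at 0.17, *Sparc* (a matrix protein) at 0.34, *Ptgds* (prostaglandin D synthase) at 0.19, *Selenop* at 0.22, *Mfge8* at 0.27 and *Mt2* at 0.19, each higher in 4 of 4 sections. *Nrgn* (neurogranin) was at −0.20, *Snap25* at −0.18, *Syn1* at −0.19 and *Stx1a* at −0.26, each lower in 4 of 4 sections. *Tbr1*, a transcription factor of cortical excitatory neurons, was at −0.33. *Gnrh1*, the gene for gonadotropin-releasing hormone, had the lowest fitted value (−3.68, 40 against 526 UMIs), but its log2 ratio was −0.22, 0.36, −4.08 and −2.33 in sections 1 to 4.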
